A study of Mus musculus with 6 samples.

Results

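The 10 genes described here encode the killing machinery of NK cells: the granzymes Gzma, Gzmb, Gzmc, Gzmk and Gzmm, perforin (Prf1), the granule proteins Nkg7 and Srgn, and the death ligands Fasl and Tnfsf10. They were chosen by name from 25690 gene symbols, and all 10 were among the 15474 genes with enough counts to be tested. RNA was sequenced from CD27SP NK cells, which are immature NK cells sorted from mouse BM as NK1.1+, CD27+, CD11b- and CD3-. There were 3 libraries from Ncr1cre Myc fl/fl mice, whose floxed Myc alleles are deleted by Cre, and 3 from Ncr1cre Myc wt/wt mice. Both genotypes carried Ncr1cre on a C57BL/6 background, and were sex- and age-matched, and no treatment is named. Cre is driven by Ncr1, the gene of the receptor NKp46, so that deletion starts only when a cell begins to express NKp46, and CD27SP cells are among the first to undergo it. Libraries carry the replicate numbers 1, 2 and 4 in each genotype and are called wt/wt 1, 2 and 4 and fl/fl 1, 2 and 4. No source used here says that libraries came from separate mice, so p-values measure only the spread between these libraries.

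NK cells kill by secreting granules and by displaying death ligands. Perforin opens pores in the target's membrane, through which granzymes, a family of serine proteases, reach the cytosol and cleave their substrates. In the granule, granzymes are held on serglycin (the product of Srgn). Fas ligand (Fasl) and TRAIL (Tnfsf10) instead bind death receptors, which recruit the adaptor FADD and caspase-8. Mouse NK cells are known for storing granzyme and perforin transcripts before activation, and transcript levels in them are not a measure of protein.

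The mouse granzyme genes lie in separate places in the genome, given here in GRCm38. Gzma (chr13:113093825-113100981) and Gzmk (chr13:113171608-113225908) are neighbours on the minus strand of chromosome 13. Gzmm (chr10:79689020-79695261) and Prf1 (chr10:61297833-61304680) are on the plus strand of chromosome 10, and Srgn (chr10:62493833-62527451) is on its minus strand. Nkg7 (chr7:43437073-43438249) and Tnfsf10 (chr3:27317028-27342427) are on plus strands, and Fasl (chr1:161780689-161788495) is on a minus strand. Gzmb (chr14:56258838-56262260) and Gzmc (chr14:56231441-56234656) stand in a cluster on the minus strand of chromosome 14 with the rodent granzyme genes Gzmd, Gzme, Gzmf, Gzmg and Gzmn, which were not among the 10 but share sequence with them. The cluster is shown as 60 coding bases around the codon of the catalytic serine, because the counts of these genes turn on how well reads can tell them apart. Capitals mark the bases that differ from Gzmd.
Gzmb: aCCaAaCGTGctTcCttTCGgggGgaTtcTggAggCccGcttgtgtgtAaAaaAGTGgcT
Gzmc: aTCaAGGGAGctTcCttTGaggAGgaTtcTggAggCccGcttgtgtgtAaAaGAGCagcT
Gzmd: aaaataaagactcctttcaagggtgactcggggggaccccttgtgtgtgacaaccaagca
Gzme: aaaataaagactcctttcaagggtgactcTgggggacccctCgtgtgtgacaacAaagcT
Gzmf: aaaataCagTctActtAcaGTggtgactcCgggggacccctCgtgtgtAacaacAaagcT
Gzmg: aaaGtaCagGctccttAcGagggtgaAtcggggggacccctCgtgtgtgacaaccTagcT
Gzmn: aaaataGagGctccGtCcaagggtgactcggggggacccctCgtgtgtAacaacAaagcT
Gzme differed from Gzmd at 4 of the 60 bases, whereas Gzmb differed at 25 and Gzmc at 26. Over the whole coding sequence, Gzmd and Gzme were 94.8% identical, Gzmb and Gzmc 75.3%, and Gzmb and Gzmd 66.5%. Of all stretches of 31 bases in its transcript, 98.7% were found in no other gene's transcripts for Gzmb and 85.2% for Gzmc, against 61.8% for Gzmd and 57.9% for Gzme. For Gzma, Gzmk, Gzmm, Nkg7 and Fasl every such stretch was private to the gene. The Gzmb counts can thus be read as those of Gzmb, while the split of counts between Gzmd and Gzme is uncertain.

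The sequence around the start separates the cluster in another way. Shown are 300 bases around the RefSeq start (250 before it and 50 after it, GRCm38.p6, minus strand) of Gzmb (chr14:56262285-56262584), Gzmc (chr14:56234608-56234907) and Gzmd (chr14:56132544-56132843). In Gzmc and Gzmd, capitals mark a run of 20 bases that is shared by Gzmc, Gzmd, Gzme, Gzmf and Gzmg. In Gzmb, capitals mark a match to the motif TTCNNNGAA, which STAT factors are known to bind. It begins 37 bases after the RefSeq start, not before it.
Gzmb: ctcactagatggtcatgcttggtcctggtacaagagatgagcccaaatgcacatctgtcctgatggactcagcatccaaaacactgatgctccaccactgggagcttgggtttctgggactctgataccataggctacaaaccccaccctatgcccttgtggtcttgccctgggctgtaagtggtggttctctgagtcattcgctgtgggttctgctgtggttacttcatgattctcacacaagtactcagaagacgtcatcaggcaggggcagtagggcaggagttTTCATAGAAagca
Gzmc: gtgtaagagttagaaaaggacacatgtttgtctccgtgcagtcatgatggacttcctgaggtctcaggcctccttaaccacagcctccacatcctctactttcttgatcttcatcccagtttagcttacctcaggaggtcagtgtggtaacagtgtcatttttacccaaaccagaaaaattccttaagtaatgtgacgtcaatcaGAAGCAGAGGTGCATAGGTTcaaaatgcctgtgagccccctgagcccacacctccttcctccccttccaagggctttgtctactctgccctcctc
Gzmd: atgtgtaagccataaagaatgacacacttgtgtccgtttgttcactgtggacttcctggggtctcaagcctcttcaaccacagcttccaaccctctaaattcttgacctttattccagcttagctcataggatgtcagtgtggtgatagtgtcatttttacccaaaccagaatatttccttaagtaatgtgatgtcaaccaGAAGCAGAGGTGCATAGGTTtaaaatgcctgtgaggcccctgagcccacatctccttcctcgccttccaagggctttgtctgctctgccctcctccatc
The run was found in 5 of 32851 RefSeq promoters (0.0152%), those of the 5 genes named, and was in neither the Gzmb nor the Gzmn promoter. It begins 45 bases before the start of Gzmc and 49 bases before that of Gzmd. Aligned with the Gzmd promoter, that of Gzme was 94.0% identical, that of Gzmc 86.1%, that of Gzmn 48.8% and that of Gzmb 41.2%. The Gzmb window lies wholly upstream of its GENCODE transcript, which starts at chr14:56262260. The windows of Gzmc and Gzmd cover their transcript starts, so the identity of Gzmb compares unlike positions. The 10 genes have 12 promoter entries, and 3 motifs were searched in them on both strands. TTCNNNGAA was in the promoters of Gzmb, Gzmm and Nkg7 and in 8.30% of all promoters. The E-box CACGTG, which MYC is known to bind, was in 1 of the 12 entries, one of Gzmm, and in 7.15% of all promoters. That entry (chr10:79693576-79693875) lies inside Gzmm, whose first listed base is 79689020. AGGTGTGA, bound by T-box factors, was in that of Nkg7 and in 1.28% of all promoters. A match is only a match of letters.

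Libraries held between 54550907 and 64962491 estimated counts, except wt/wt 1 with 8101219. Myc was at 164.3 to 200.5 CPM (counts scaled to library size with TMM factors) in the wt/wt libraries and at 61.5 to 76.5 CPM in the fl/fl libraries (log2 fold change −1.44, SE 0.15, adjusted p = 0.00189 in edgeR's quasi-likelihood test). NK cell markers were high in both genotypes, with Il2rb at 2680 to 4399 CPM and Klrk1 at 2009 to 2643 CPM, and none of the 8 NK cell markers passed the threshold. Transcripts of the CD3 complex were also found in every library, with Cd3e at 38.1 to 110.2 CPM. Of the other T cell markers, Trac was at 18.9 to 41.6 CPM. Cd4, Cd8a and Cd8b1 were at no more than 0.553, 2.24 and 0.653 CPM in any library. Whether T cells were present was not tested. In fl/fl 4, 282 of 17105 genes (1.65%) were more than 2-fold above all 5 other libraries, against 0.503% to 0.912% in the others. In wt/wt 1, the shallowest library, 11.1% of these genes were more than 2-fold below all 5 others, against 0.514% to 1.03% in the rest. Gzmb, Gzmc and Prf1 were among those of fl/fl 4, so values are given for each library, and the tests are also given without it.

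Transcripts of Gzmb and Prf1 were higher in every fl/fl library than in any wt/wt library, and those of Gzma and Gzmk were lower in every one. Beyond these, Nkg7 and Fasl also lay higher in every fl/fl library. Among all tested genes, 16.2% had every fl/fl library above every wt/wt library and 15.1% had every one below, so that 4 and 2 of the 10 genes stand against 2510 and 2336 of 15474. None of the 10 genes passed the threshold of the edgeR test (adjusted p below 0.01 and a log2 fold change of at least 0.5 either way), at which 0.872% of all tested genes were lower and 1.28% were higher. At an unadjusted p below 0.05 in edgeR, 2 of the 10 were lower (Gzma and Gzmk, against 10.2% of all genes) and 3 were higher (Gzmb, Prf1 and Fasl, against 12.4%). DESeq2 called 2 lower, Gzma (adjusted p = 0.00992) and Gzmk (adjusted p = 0.00133), against 3.54% of all genes, and 0 higher, against 4.17%. limma-trend called 0 in either direction, against 0.504% lower and 0.931% higher of all genes, and so did edgeR without the replicate block, against 1.19% and 1.31%. With no filter on low counts, edgeR called Gzmb (adjusted p = 0.000212) and Prf1 (adjusted p = 0.00724) higher, against 2.53% of genes, and 0 lower, against 1.83%. The median log2 fold change of the 10 genes was 0.26, beside 0.01 over all tested genes.

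**Figure D1:**
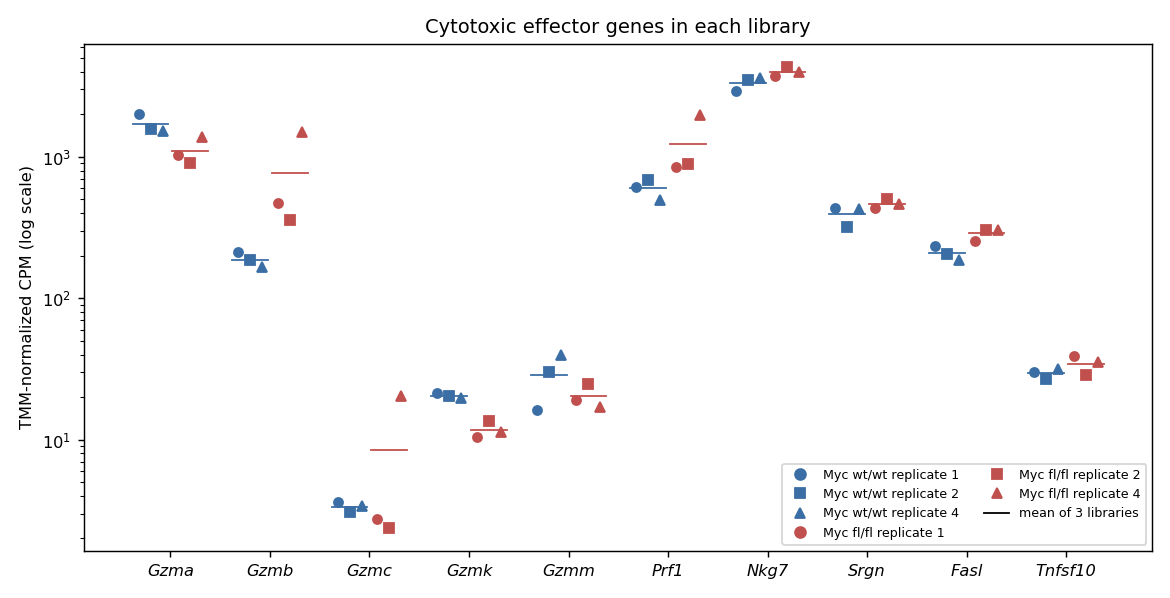
TMM-normalized CPM (log scale) of the 10 genes in each library, with wt/wt in blue, fl/fl in red, a marker shape per replicate number and a line at the mean of 3 libraries. The triangles of fl/fl 4 lie far above the other red points for Gzmb, Gzmc and Prf1, and the red points lie below the blue ones for Gzma and Gzmk.

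Gzmb encodes granzyme B, the aspartate-cleaving granzyme that triggers apoptosis in target cells. It was at 211.8, 185.9 and 166.0 CPM in wt/wt 1, 2 and 4 and at 472.2, 357.9 and 1488 CPM in fl/fl 1, 2 and 4. The groups did not overlap, and fl/fl 4 was 3.58 times the mean of fl/fl 1 and 2. The means were 187.9 ± 23.0 (SD, n = 3) and 772.7 ± 622.1 CPM (SD, n = 3), and the fitted log2 fold change was 1.73 (SE 0.37, edgeR adjusted p = 0.0216). Without fl/fl 4, in a fit without the replicate block, the log2 fold change was smaller at 1.16 (SE 0.16), and it then passed the threshold (edgeR adjusted p = 0.00654), as did 0.734% of the genes tested in that fit in the higher direction. With both libraries of number 4 left out it was 1.03 (SE 0.19, edgeR adjusted p = 0.00727), at which 1.04% of genes were higher. fl/fl 1 and 2 alone were thus at 2.21 times the wt/wt mean, and fl/fl 4 added to the size of the difference and to its spread. All counts of Gzmb came from its single listed transcript.

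Prf1 encodes perforin. It was at 616.2, 689.5 and 498.3 CPM in wt/wt 1, 2 and 4 and at 846.4, 891.4 and 1988 CPM in fl/fl 1, 2 and 4. The groups again did not overlap, with fl/fl 4 at 2.29 times the mean of fl/fl 1 and 2. Its log2 fold change was 0.93 (SE 0.28, edgeR adjusted p = 0.0771), and without fl/fl 4 and the block it was 0.54 (SE 0.15, edgeR adjusted p = 0.0795). With both libraries of number 4 left out it was 0.40 (SE 0.19, edgeR adjusted p = 0.332). Prf1 therefore missed the threshold in these fits with and without that library. With all 6 libraries and no filter on low counts it passed (edgeR adjusted p = 0.00724), as did 2.53% of genes in the higher direction. Of its 2 listed transcripts, the longer one held on average 73.6% of the counts in wt/wt and 76.8% in fl/fl.

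Gzma encodes granzyme A, a tryptase and the most abundant granzyme transcript in these cells. It was at 2024, 1587 and 1516 CPM in wt/wt 1, 2 and 4 and at 1030, 900.5 and 1380 CPM in fl/fl 1, 2 and 4. Every fl/fl library was below every wt/wt library, although fl/fl 4 lay close to wt/wt 4. On the log2 scale the difference was −0.64 (SE 0.18, edgeR adjusted p = 0.0564). It was −0.81 without fl/fl 4 and the block (SE 0.16, edgeR adjusted p = 0.0214) and −0.48 without both libraries of number 1 (SE 0.18, edgeR adjusted p = 0.202).

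Gzmk encodes granzyme K, another tryptase and the neighbour of Gzma on chromosome 13. It was at 21.4, 20.3 and 19.7 CPM in wt/wt 1, 2 and 4 and at 10.4, 13.5 and 11.4 CPM in fl/fl 1, 2 and 4. The groups were well apart, each with a narrow spread (20.5 ± 0.879 and 11.8 ± 1.58 CPM, SD, n = 3 each), and fl/fl 4 lay between the other fl/fl libraries. The log2 fold change was −0.80 (SE 0.19, edgeR adjusted p = 0.0349), and −0.76 without fl/fl 4 and the block (SE 0.19, edgeR adjusted p = 0.0527). Gzmk was the only one of the 10 genes below an adjusted p of 0.05 in the lower direction, as 3.38% of all genes were, and Gzmb was the only one in the higher direction, as 4.45% were. On average 20.2% of its counts in wt/wt and 22.2% in fl/fl were assigned to a transcript annotated as subject to nonsense-mediated decay.

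Gzmm encodes granzyme M, which cleaves after methionine and leucine. It was at 16.2, 30.1 and 39.5 CPM in wt/wt 1, 2 and 4 and at 19.1, 24.7 and 17.0 CPM in fl/fl 1, 2 and 4. The groups overlapped because wt/wt 1 was the lowest of all libraries. Gzmm had a log2 fold change of −0.44 (SE 0.26, edgeR adjusted p = 0.355), and −0.40 without fl/fl 4 and the block (SE 0.32, edgeR adjusted p = 0.541). It ranged from −0.06 without both libraries of number 4 to −0.79 (edgeR adjusted p = 0.0470) without wt/wt 1 and the block.

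Gzmc encodes granzyme C, which is found in activated rodent killer cells. It was at 3.64, 3.07 and 3.39 CPM in wt/wt 1, 2 and 4 and at 2.76, 2.38 and 20.4 CPM in fl/fl 1, 2 and 4. Only fl/fl 4 was high, at 7.95 times the mean of fl/fl 1 and 2, which were themselves below all wt/wt libraries. The log2 fold change of 0.63 (SE 0.56, edgeR adjusted p = 0.572) became −0.37 (SE 0.29, edgeR adjusted p = 0.544) without fl/fl 4 and the block and −0.40 without both libraries of number 4, so its direction rested on 1 library.

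**Figure D2:**
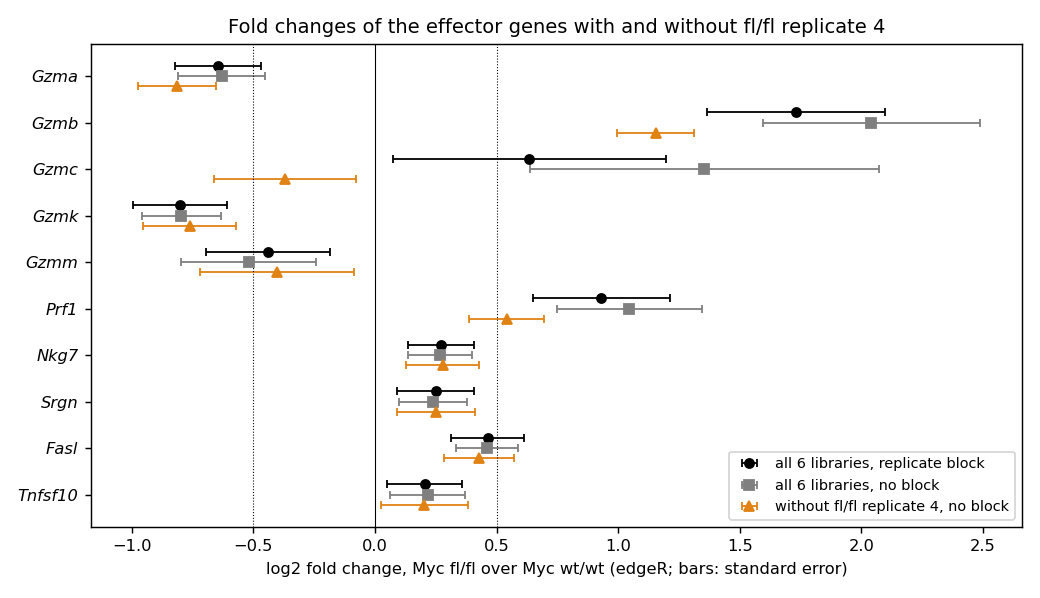
Log2 fold change of Myc fl/fl over Myc wt/wt for the 10 genes in edgeR, with standard errors as bars, fitted on all 6 libraries with the replicate block (black circles), without the block (grey squares), and without fl/fl 4 and the block (orange triangles). Dotted lines mark 0.5 either way. Gzmb, Prf1 and Gzmc move towards 0 or past it when fl/fl 4 is left out, and the bar of Gzmb is shorter there.

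The 5 other granzymes of the chromosome 14 cluster had counts in fl/fl 4 alone, though Gzmg and Gzmn only a few. They did not enter the test, which asks for counts in more than 1 library. In each of the 5 other libraries their estimated counts were 0, which allows up to 0.390 CPM in wt/wt 1 and up to 0.0549 CPM in the rest (3 counts of the library's total, counting error only). Gzmd had 1992 counts in fl/fl 4 (95% exact Poisson interval 1905 to 2081, or 33.4 CPM), which, from the lower end of this interval, is at least 625-fold higher than in fl/fl 1, at least 581.6-fold higher than in fl/fl 2, and at least 81.9-fold higher than in the shallow wt/wt 1. Gzme had 786 counts (732 to 843, or 13.2 CPM), likewise at least 223-fold higher than in fl/fl 2 and at least 31.4-fold higher than in wt/wt 1. Since reads split uncertainly between Gzmd and Gzme, these values hold only as far as that split does. Gzmf had 60 counts (45.8 to 77.2, or 1.01 CPM), Gzmg had 4 and Gzmn had 3. Per transcript length, fl/fl 4 held Gzmb at 1495 TPM, Gzmc at 37.9 TPM and Gzmf at 1.76 TPM, and Gzmd and Gzme, with the same uncertain split, at 57.1 and 24.5 TPM. Gzmc, of those with counts in every library, was 5.61 times the next highest library in fl/fl 4, Gzmb 3.15 times, and Prf1, outside the cluster, 2.23 times.

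**Figure D3:**
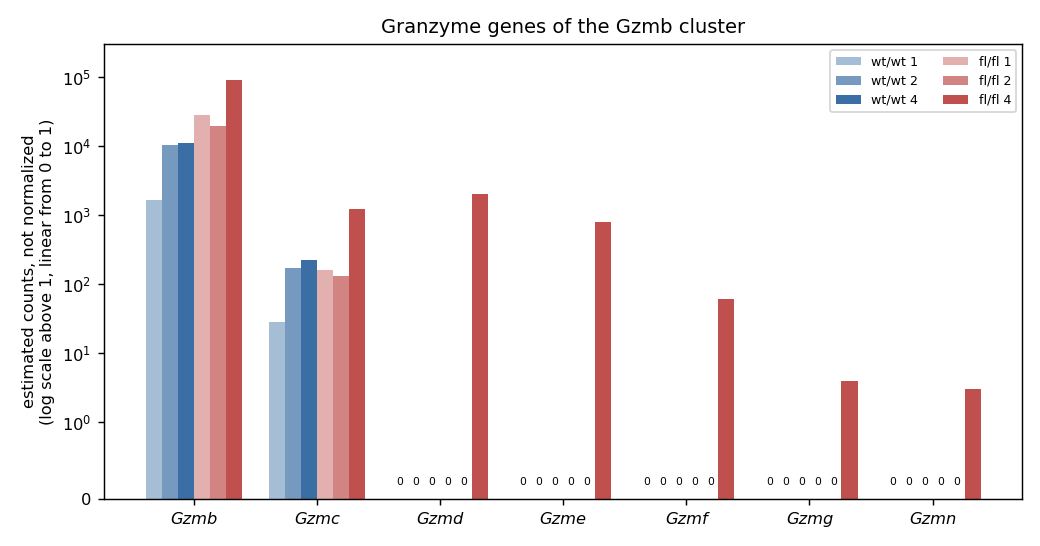
Estimated counts, not normalized, of the 7 granzyme genes of the chromosome 14 cluster in each library (log scale above 1, linear from 0 to 1), with wt/wt bars in blue and fl/fl bars in red. Gzmd, Gzme, Gzmf, Gzmg and Gzmn have counts in fl/fl 4 and 0 in the other 5 libraries, while Gzmb and Gzmc have counts in all.

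Nkg7 encodes a small membrane protein of the granules that is needed for their release. It was at 2914, 3486 and 3615 CPM in wt/wt 1, 2 and 4 and at 3728, 4322 and 3999 CPM in fl/fl 1, 2 and 4. The groups did not overlap, but the lowest fl/fl library was close to the highest wt/wt library, and fl/fl 4 did not stand apart. In the fit, its log2 fold change was 0.27 (SE 0.14, edgeR adjusted p = 0.282), and 0.28 without fl/fl 4 and the block (SE 0.15, edgeR adjusted p = 0.347). On average 25.1% of its counts in wt/wt and 23.8% in fl/fl were assigned to a transcript that retains an intron.

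Srgn encodes serglycin, the proteoglycan core that holds granzymes in the granule, and is also used by other blood cells. It was at 437.8, 321.4 and 431.4 CPM in wt/wt 1, 2 and 4 and at 437.7, 500.4 and 465.3 CPM in fl/fl 1, 2 and 4. The groups overlapped narrowly, since fl/fl 1 and wt/wt 1 were at the same level. Srgn had a log2 fold change of 0.25 (SE 0.16, edgeR adjusted p = 0.400), and 0.25 without fl/fl 4 and the block (SE 0.16, edgeR adjusted p = 0.431). It fell to 0.12 without wt/wt 2 and the block and to 0.06 without both libraries of number 2.

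The death ligands were measured at different levels. Fasl was at 233.7, 205.6 and 187.1 CPM in wt/wt 1, 2 and 4 and at 254.6, 302.4 and 304.9 CPM in fl/fl 1, 2 and 4. Its groups did not overlap, and fl/fl 4 lay beside fl/fl 2. The log2 fold change of Fasl was 0.46 (SE 0.15, edgeR adjusted p = 0.0977), and it was 0.43 without fl/fl 4 and the block (SE 0.14, edgeR adjusted p = 0.128). Tnfsf10, which encodes TRAIL, was at 30.3, 26.8 and 31.8 CPM in wt/wt 1, 2 and 4 and at 39.0, 28.7 and 35.4 CPM in fl/fl 1, 2 and 4. Its groups overlapped, with fl/fl 2 inside the wt/wt range, and its log2 fold change was 0.20 (SE 0.16, edgeR adjusted p = 0.50). Without fl/fl 4 and the block, that of Tnfsf10 was also 0.20 (SE 0.18, edgeR adjusted p = 0.591).

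Levels of different genes were compared as TPM, which divides counts by transcript length before scaling to library size. In wt/wt, Nkg7 was the highest at 7752 ± 1077 TPM (SD, n = 3), followed by Gzma at 2874 ± 380.4, Srgn at 584.5 ± 85.2, Prf1 at 366.6 ± 73.8, Gzmb at 178.4 ± 19.1 and Fasl at 136.9 ± 14.0 TPM. Gzmm (39.0 ± 16.9 TPM), Gzmk (29.7 ± 1.40 TPM), Tnfsf10 (8.86 ± 0.858 TPM) and Gzmc (5.84 ± 0.222 TPM) were far lower. Gzmm and Gzmk were the only neighbours in this order whose ranges overlapped. In fl/fl, Nkg7 (9875 ± 807.0 TPM) and Gzma (1964 ± 440.7 TPM) kept the top places, and Prf1 (815.4 ± 418.1 TPM) and Gzmb (779.4 ± 623.2 TPM) stood on average above Srgn (713.1 ± 38.4 TPM). That order of means rested on fl/fl 4, since in fl/fl 1 and 2 Srgn was at 676.5 and 753.0 TPM, above Prf1 at 571.6 and 576.3 TPM and Gzmb at 486.9 and 356.2 TPM. The ranges of Prf1, Gzmb and Srgn overlapped there, so these 3 cannot be ordered, and that of Gzmc (4.36 to 37.9 TPM) spanned those of Gzmm, Gzmk and Tnfsf10.

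The share of each granzyme in their summed TPM differed between the genotypes in the same direction for Gzma and Gzmb in every library. The 5 granzymes summed to 3533, 3068 and 2778 TPM in wt/wt 1, 2 and 4 and to 2410, 1992 and 4017 TPM in fl/fl 1, 2 and 4, with overlapping ranges. Gzmb made up 5.47%, 6.03% and 5.65% of this sum in wt/wt and 20.2%, 17.9% and 37.2% in fl/fl. Gzma made up 93.0%, 91.4% and 91.2% in wt/wt and 77.7%, 79.1% and 60.8% in fl/fl. For each Gzmb transcript there were 17.0, 15.2 and 16.1 Gzma transcripts in wt/wt and 3.85, 4.42 and 1.63 in fl/fl, so the ratio was lower in all 3 fl/fl libraries, those other than fl/fl 4 included. The ratio of Gzmb to Prf1 was 0.567, 0.411 and 0.508 in wt/wt and 0.852, 0.618 and 1.15 in fl/fl. These shares are descriptions, with no test of their own.

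**Figure D4:**
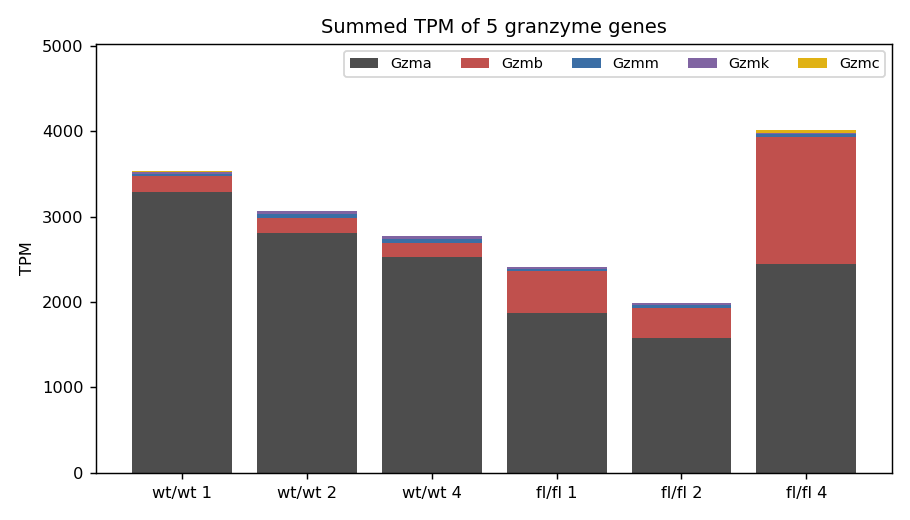
Summed TPM of the 5 granzyme genes in each library, stacked by gene. Gzma (dark grey) fills 91.2% to 93.0% of each wt/wt bar, while Gzmb (red) takes 17.9% to 37.2% of each fl/fl bar, the most in fl/fl 4.

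The genes whose levels ran most like those of Gzmb over the 6 libraries (smallest root mean square difference of mean-centred log2 CPM) were Tmprss6 (0.177), Pik3r6 (0.187) and Cd300lb (0.227). Tmprss6 was at 4.15 to 6.63 CPM in wt/wt and at 12.5, 12.4 and 41.8 CPM in fl/fl 1, 2 and 4. For Prf1 they were Mamdc2 (0.0811), Mt2 (0.140) and Capn5 (0.141), of which Mt2 was counted at no more than 1.14 CPM. Mamdc2 was at 7.74 to 10.8 CPM in wt/wt and at 11.7, 13.2 and 33.5 CPM in fl/fl 1, 2 and 4.

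Around the 10 genes, 52 other genes of the granule and death receptor pathways were followed, of which 47 were tested. Of these, 5 rose (Ctsh, Cd63, Stx11, Cst7 and Tnf) and 1 fell (Serpinb9b) in fl/fl past the edgeR threshold, against 1.28% and 0.872% of all tested genes. Their median log2 fold change was 0.17, beside 0.01 over all genes, and 38 lay above 0 and 9 below. The calls depended strongly on the fit: without fl/fl 4 and the block, 1 rose and 0 fell (0.734% and 0.443% of all genes), and with both libraries of number 4 left out, 3 rose and 0 fell (1.04% and 0.735%). Leaving out any other single library or replicate number also changed the count, to between 0 and 2 that rose and 0 that fell.

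Among granule proteases and luminal proteins, 2 of 7 rose and all 7 had fitted fold changes above 0. Ctsh encodes cathepsin H, a lysosomal aminopeptidase. It rose from 3.31 ± 1.14 to 11.6 ± 1.16 CPM (SD, n = 3; log2 fold change 1.85, SE 0.26, edgeR adjusted p = 0.00447). Cd63 encodes a tetraspanin of lysosome-related granules and rose from 5.20 ± 0.810 to 16.5 ± 2.95 CPM (log2 fold change 1.64, SE 0.25, edgeR adjusted p = 0.00579). Ctsc, whose product dipeptidyl peptidase I activates granzymes by trimming them, was at 319.1 ± 6.13 and 356.9 ± 36.7 CPM (log2 fold change 0.16, edgeR adjusted p = 0.560).

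Of the 15 genes of granule docking and fusion, 1 rose and 14 did not pass. Stx11 encodes syntaxin-11, a fusion protein whose loss in humans causes a failure of granule release, and it rose from 47.2 ± 5.53 to 86.6 ± 4.11 CPM (log2 fold change 0.88, SE 0.14, edgeR adjusted p = 0.00777). Next by adjusted p came Sytl2, an adaptor of the small GTPase RAB27A, at 115.7 ± 19.2 and 152.7 ± 32.4 CPM (log2 fold change 0.39, edgeR adjusted p = 0.196). The inhibitors of granule proteases went both ways. Serpinb9b, a relative of the granzyme B inhibitor Serpinb9, was at 40.2, 40.4 and 38.3 CPM in wt/wt and fell to 15.3, 21.2 and 22.2 CPM in fl/fl (log2 fold change −1.03, SE 0.18, edgeR adjusted p = 0.00920). Serpinb9 itself was at 572.7 ± 77.6 and 604.4 ± 109.2 CPM (log2 fold change 0.07, edgeR adjusted p = 0.866). Cst7 encodes cystatin F, which inhibits cathepsins that process granzymes, and rose from 210.6 ± 27.9 to 362.7 ± 36.3 CPM (log2 fold change 0.79, SE 0.14, edgeR adjusted p = 0.00968).

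Of the 5 other ligands of the TNF family, all had fitted fold changes above 0 and 1 rose. Tnf encodes the cytokine TNF and rose from 14.1 ± 2.90 to 34.5 ± 6.70 CPM (log2 fold change 1.30, SE 0.17, edgeR adjusted p = 0.00348). Lta, its neighbour in the family, was at 4.01 ± 0.538 and 8.61 ± 1.62 CPM (log2 fold change 1.09, edgeR adjusted p = 0.0256). None of the 7 death receptors and decoys passed. The smallest adjusted p among them was that of Tnfrsf1b, the second TNF receptor, at 204.5 ± 11.9 and 308.1 ± 37.4 CPM (log2 fold change 0.59, edgeR adjusted p = 0.0369), followed by Tnfrsf10b, the mouse TRAIL receptor, at 5.84 ± 0.238 and 4.44 ± 0.403 CPM (log2 fold change −0.40, edgeR adjusted p = 0.412). None of the 8 signalling genes passed either. Cflar, which encodes the caspase-8 inhibitor FLIP, was at 86.9 ± 5.41 and 110.8 ± 6.48 CPM (log2 fold change 0.35, edgeR adjusted p = 0.155).

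**Figure D5:**
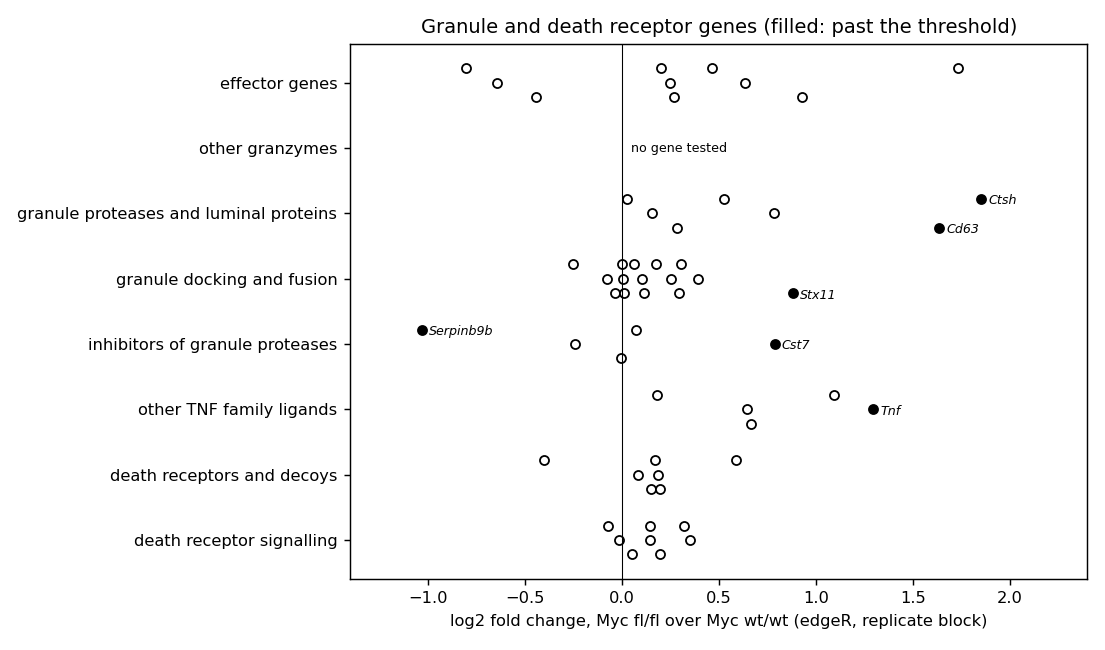
Log2 fold changes (edgeR with the replicate block) of the 10 effector genes and of the other granule and death receptor genes by list. Each point is a gene, filled where it passed the threshold. Filled points are found for Ctsh, Cd63, Stx11, Cst7 and Tnf to the right of 0 and for Serpinb9b to the left, and none among the effector genes.

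Transcripts of other BM cell types moved with the genotype, and because these are bulk samples, a difference in the number of cells of a type cannot be told apart from a difference in RNA per cell. All 7 basophil and mast cell markers rose, their summed level being 14.8 to 18.4 CPM in wt/wt and 273.9, 329.1 and 120.1 CPM in fl/fl 1, 2 and 4, led by Prss34 and Mcpt8. All 5 granulocyte-monocyte progenitor markers rose, from a sum of 82.4 to 125.4 CPM to 554.2, 521.9 and 878.0 CPM, led by Mpo and Elane. Of 5 tested monocyte markers 4 rose, Ly6c2 being the highest of them, from 128.0 to 228.9 CPM in wt/wt to 232.0 to 446.7 CPM in fl/fl. The most abundant, Ccr2, did not pass (log2 fold change 0.25, edgeR adjusted p = 0.305), and it made up most of the monocyte sum of 1658 to 1865 CPM in wt/wt and 2085 to 2370 CPM in fl/fl. Erythroid markers (3 of 7 rose, not including the most abundant, Hba-a2 and Hbb-bs) summed to 45.8 to 281.8 CPM in wt/wt and to 558.8 to 1166 CPM in fl/fl. Among platelet and megakaryocyte markers (Pf4 and Itga2b the most abundant) 1 of 5 rose, Itga2b, as did 1 of 5 tested plasmacytoid dendritic cell markers, Siglech, while the most abundant of that list, Cox6a2 and Bst2, did not pass. No neutrophil marker passed, but all 5 tested had fitted fold changes above 0 (median log2 fold change 1.66, led in level by S100a8 and S100a9), and their sum was 3.64 to 15.8 CPM in wt/wt and 12.2, 21.5 and 29.6 CPM in fl/fl 1, 2 and 4. No T cell (Trbc1 and Trbc2) or B cell marker (Cd79b and Ebf1) passed, B cell markers summing to at most 15.2 CPM. No marker was at 0 in all 6 libraries. Mast cells and myeloid progenitors are known to use Srgn, Cd63, Ctsh and granule proteases as well, and the part of these cells in the values of the 10 genes and of the pathway genes was not tested. Within fl/fl, the basophil and mast cell sum was lowest in fl/fl 4, whereas the progenitor sum, like Gzmb and Prf1, was highest there.

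Most markers of NK cell maturation did not pass the threshold. Of 5 immature NK cell markers (Emb and Tcf7 the highest) 1 rose, Kit, which mast cells and progenitors are known to express as well, and of 6 mature NK cell markers (Zeb2 and Itgam the highest) 2 fell, Cma1 and S1pr5. The mature markers summed to 136.4 to 212.4 CPM in wt/wt and to 138.0, 135.2 and 143.6 CPM in fl/fl 1, 2 and 4. No ILC1 marker passed (Cxcr6 and Tmem176b the highest), and their sum was 220.9 to 350.1 CPM in wt/wt and 362.1, 443.3 and 382.1 CPM in fl/fl 1, 2 and 4. In fl/fl 4, where Gzmb, Gzmc and Prf1 were highest, the ILC1 marker Itga1 was at 65.6 CPM against 9.88 to 19.0 CPM in the other libraries, and the ILC1 markers Cxcr6 and Zfp683, at 167.2 and 5.16 CPM, were also higher than in fl/fl 1 and 2, while Tmem176a, Tmem176b and Rora, at 25.5, 58.6 and 59.96 CPM, were lower. Of the mature NK cell markers, Klrg1 was at 37.1 CPM against 7.85 to 23.5 CPM and Itgam at 46.8 CPM against 34.6 to 45.6 CPM, while S1pr5, Cma1, Zeb2 and Cx3cr1, at 9.68, 3.38, 42.9 and 3.62 CPM, were lower in fl/fl 4 than in fl/fl 1 and 2. Besides Itga1, other markers were more than 2-fold above all other libraries in fl/fl 4. These were the progenitor marker Elane, the neutrophil markers Ltf, Camp and Ngp, the T cell marker Cd8b1, and the B cell markers Cd79a and Pax5. Elane was at 81.4 CPM there and the rest at no more than 5.98 CPM. The part of all these markers in the values of the effector genes was not tested.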

How the data were processed

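RNA of sorted cells was made into libraries by the authors with SMART-Seq v4 and poly(A) selection and sequenced single end on a NovaSeq. The authors deposited for each transcript its effective length, an estimated count that is not normalized, and TPM. The methods name Salmon within nf-core/RNAseq and GRCh38, whereas the tables list mouse transcripts in the columns of kallisto. Whether reads were counted by strand is not given in the sources used here.

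GENCODE M21 (GRCm38) gave each transcript its gene symbol (100239 of 100583 matched, with 0.129% to 0.169% of counts unmatched), and the counts were added up per symbol and rounded. Genes kept by filterByExpr were tested with TMM factors in edgeR 4.0.16 under R 4.3.3. Replicate numbers entered as a block, since the study calls its analyses paired. Adjusted p-values are Benjamini-Hochberg values over all 15474 tested genes. Alternatives were DESeq2 (1.42.0), limma-trend (3.58.1), other normalizations, filters and thresholds, and leaving out each replicate number, or each library without the block, where the fit pools the spread of the rest. Likeness used log2(CPM + 0.5). Promoters are from RefSeq (GRCm38.p6) and coding sequences from GENCODE M21. The fit was also run on simulated counts, with an outcome that is not given here. Chi-square per degree of freedom between replicates of a genotype was 36.5 to 91.9, above counting noise, so each library was counted as 1 sample.

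The 10 genes, the other lists and the naming rules were chosen with earlier results of these data known. Named are the 10 genes, Myc, pathway genes past the threshold, the 2 with the smallest adjusted p in each pathway list, the 2 highest in each marker list, and 3 genes each most like Gzmb and Prf1, except for an item that is not reported here. Cd3e, Trac, Cd4, Cd8a, Cd8b1, Kit, Cma1, S1pr5, Siglech, Cx3cr1, Itga1, Zfp683, Tmem176a, Rora, Klrg1, Ltf, Camp, Ngp, Cd79a, Pax5, Ctsc, Serpinb9 and the genes under the other observations were named after their values were seen.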

Additional observations from a re-analysis of the deposited data

How the results depend on the processing

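Under 20 alternative settings, the log2 fold changes of Gzma, Gzmb, Gzmk, Gzmm, Prf1, Nkg7, Srgn, Fasl and Tnfsf10 kept their sign, with Gzmb between 1.03 and 2.39, Prf1 between 0.40 and 1.26, Gzma between −0.92 and −0.48, and Gzmk between −0.91 and −0.69. Nkg7 lay between 0.16 and 0.33, Srgn between 0.06 and 0.37, and Tnfsf10 between 0.11 and 0.33. The settings that change only the adjusted p or the threshold reuse the fold changes of the main fit, so no sign could change there. Gzmc turned to −0.40 without both libraries of number 4 and to −0.37 without fl/fl 4 and the block. Of the 10 genes, 0 were lower and 0 higher at the threshold in edgeR, while 2 were lower in DESeq2 (Gzma and Gzmk) and 2 higher with no filter on low counts (Gzmb and Prf1, among 20689 genes, of which 2.53% were higher). With an adjusted p below 0.05 and no fold change limit, 1 was lower and 1 higher. Leaving out replicates gave 0 lower and 0 to 1 higher. Of the other pathway genes (1 lower, 5 higher), the lower count was 0 in limma-trend, with the largest adjusted p of the 3 tools, with library size only and with offsets from effective lengths, and 0 on leaving out any replicate. The higher count was 9 in DESeq2, 3 in limma-trend and with the largest adjusted p, 1 with library size only, 0 with offsets, 8 with no filter and at an adjusted p below 0.05, and 0 to 3 on leaving out replicates. The cause of these shifts was not tested. Over all genes (135 lower and 198 higher), DESeq2 called 548 and 645, no filter gave 378 and 524, an adjusted p below 0.05 gave 523 and 689, limma-trend 78 and 144, library size only 25 and 49, and offsets from effective lengths 6 and 24. Leaving out a replicate number gave 10 to 114 lower and 49 to 162 higher, and leaving out 1 library without the block gave 6 to 130 lower and 19 to 116 higher. For Gzmc, the log2 ratio of mean levels was 1.44 in TPM and 1.34 in CPM, and for Gzmk −0.71 and −0.80. The shallow wt/wt 1 limits what can be said of the weakest genes, Gzmc, Gzmk, Gzmm and Tnfsf10.

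The libraries of equal number were not shown to be paired: the deviations of same-numbered libraries from their genotype means correlated at −0.01, −0.02 and 0.05 for numbers 1, 2 and 4, below the limit of 0.1, and only for number 4 was the same number the best match. Without the replicate block, 0 of the 10 genes were lower and 0 higher, and 1 and 5 of the other pathway genes, with 184 and 203 over all genes. The log2 fold change of Gzmb was then 2.04 (SE 0.45, edgeR adjusted p = 0.0214) and that of Prf1 1.05 (SE 0.30, edgeR adjusted p = 0.0547). No call among the 10 genes changed.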

Other observations

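In fl/fl 4, 63 genes above 10 CPM were more than 2-fold above all 5 other libraries, and Gzmb, Gzmc, Prf1, Gzmd and Gzme were among them. The following were picked after their values were seen. Spp1, which encodes the secreted protein osteopontin, was at 1611 CPM in fl/fl 4, at 71.4 and 57.1 CPM in fl/fl 1 and 2, and at 11.0 to 25.1 CPM in wt/wt (log2 fold change 3.45, edgeR adjusted p = 0.0154). The inhibitory receptor genes Lag3 and Ctla4 were at 22.1 CPM against 3.49 to 5.47 CPM and at 14.0 CPM against 0.496 to 1.66 CPM. Nr4a1 and Atf3, which encode transcription factors induced early on stimulation, rose over all libraries. Nr4a1 was at 143.0, 125.4 and 389.8 CPM in fl/fl 1, 2 and 4 and at 36.4 to 62.0 CPM in wt/wt (log2 fold change 1.96, edgeR adjusted p = 0.00287), and Atf3 at 13.03, 15.4 and 126.4 CPM against 1.95 to 7.37 CPM (log2 fold change 3.13, edgeR adjusted p = 0.00189). Rgs1 and Rgs16, regulators of G protein signalling, were at 1729 CPM against 313.2 to 515.0 CPM and at 35.1 CPM against 1.82 to 6.76 CPM. The ectonucleotidase gene Entpd1 was at 44.6 CPM against 8.57 to 12.4 CPM. The immunoglobulin segment Igkv8-30 was at 21.7 CPM against at most 0.0886 CPM. Between the genotypes, Lag3, Ctla4, Rgs1, Rgs16 and Entpd1 did not pass the threshold (edgeR adjusted p = 0.0447 to 0.340), and Igkv8-30 was not tested.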
